A study of Rattus norvegicus with 29 samples.

Results

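The genes of oxidative phosphorylation were followed in the rat duodenum after bariatric surgery. They were taken by symbol from the platform annotation: every gene whose symbol begins with Ndufa, Ndufb, Ndufc, Ndufs, Ndufv, Sdha, Sdhb, Sdhc, Sdhd, Uqcr, Cox4 to Cox8 or Atp5, and where a gene had several rows the brightest on average was kept. The rule found 94 genes among the 14557 that were named and tested. Of these, 66 encode subunits: 27 of complex I, 4 of complex II, 5 of complex III, 16 of complex IV and 14 of complex V. The other 28 were set apart, because 11 encode assembly factors or regulators and 17 are pseudogenes or gene copies. A further 12 rows matched the rule but are shared with another gene in the annotation, among them those of Cox5a, Cox7a2, Uqcrb and Ndufs5, and were not analysed here.

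RNA was measured on 29 arrays, 1 per rat. The tissue was duodenum; the rats were wild-type Long-Evans males, 8 to 10 weeks of age. There were 6 arrays of Roux-en-Y gastric bypass (RYGB), 5 of its sham operation, 6 of vertical sleeve gastrectomy (VSG), 6 of its sham operation, and 6 of VSG sham rats under paired feeding, called pair-fed sham here. In VSG about 80% of the stomach was transected; the sham rats had the abdomen opened and the stomach pressed with forceps, and all animals received liquid diet on the day before the operation. The RYGB series had no pair-fed group, and the labels do not say how long after the operation tissue was sampled. Values are RMA expression values on the log2 scale, so a difference of 1 is a doubling on that scale.

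Oxidative phosphorylation is the last step of respiration in mitochondria. Complex I takes electrons from NADH and complex II takes them from succinate; both pass them by coenzyme Q to complex III, from which cytochrome c carries them to complex IV and oxygen. Complexes I, III and IV pump protons across the inner membrane, and complex V, the ATP synthase, uses their return to make ATP. The duodenal enterocyte spends much of this ATP on the sodium pump that drives nutrient uptake. The subunits described here are encoded in the nucleus; those encoded in mitochondrial DNA are outside the rule.

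Nuclear genes of the respiratory chain are a textbook case of promoters with sites for NRF1 and for ETS factors such as GABP. The windows of 250 bases before the transcription start are therefore shown for the subunits described most closely below, those with the smallest p of their complex in the comparisons of surgery and feeding. They are from RefSeq on the GRCr8 build, 5′ to 3′ on the gene's own strand; capitals mark a match, on either strand, to NRF1 (GCGC, then A and any base, then GCGC) or ETS (CCGGAAG).
Ndufa6, complex I, chr7:115750318-115750567, minus strand: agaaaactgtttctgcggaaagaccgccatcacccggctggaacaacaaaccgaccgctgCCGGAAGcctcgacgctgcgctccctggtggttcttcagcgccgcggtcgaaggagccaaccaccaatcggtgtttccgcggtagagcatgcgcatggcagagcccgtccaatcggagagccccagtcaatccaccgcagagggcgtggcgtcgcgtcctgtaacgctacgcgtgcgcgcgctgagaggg
Sdhc, complex II, chr13:86098026-86098275, minus strand: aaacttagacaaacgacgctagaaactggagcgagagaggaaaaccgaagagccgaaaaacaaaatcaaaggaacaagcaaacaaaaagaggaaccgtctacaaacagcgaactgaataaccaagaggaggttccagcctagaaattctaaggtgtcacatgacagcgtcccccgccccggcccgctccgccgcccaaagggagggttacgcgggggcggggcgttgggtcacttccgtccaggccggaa
Uqcrc1, complex III, chr8:118467973-118468222, plus strand: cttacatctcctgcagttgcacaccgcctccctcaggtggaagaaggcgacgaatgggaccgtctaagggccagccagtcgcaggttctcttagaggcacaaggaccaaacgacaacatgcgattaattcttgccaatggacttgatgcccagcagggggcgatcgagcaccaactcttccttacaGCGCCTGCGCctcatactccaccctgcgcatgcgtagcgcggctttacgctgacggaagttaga
Atp5mk, complex V, chr1:255922048-255922297, minus strand: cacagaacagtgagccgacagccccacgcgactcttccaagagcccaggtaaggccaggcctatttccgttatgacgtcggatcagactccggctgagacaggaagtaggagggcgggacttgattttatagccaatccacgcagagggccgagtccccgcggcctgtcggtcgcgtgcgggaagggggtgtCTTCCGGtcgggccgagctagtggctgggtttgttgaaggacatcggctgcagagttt
The ETS match of Ndufa6 begins 190 bases before the start and that of Atp5mk 58 bases before it, and the NRF1 match of Uqcrc1 begins 64 bases before the start. The window of Sdhc holds neither motif, but 3 copies of the SP1 motif GGGCGG. For complex IV the subunit is Cox6c. Of the 66 subunits, 61 had a promoter in the RefSeq table. The NRF1 motif stood in 10 of them (16.4%), against 4.17% of all 27457 promoters of the same length, and the ETS motif in 16 (26.2%), against 7.78%. SP1 motifs were about as frequent in the subunit promoters (32.8%) as in all promoters (32.3%), and the TATA motif TATAAA stood in 11.5% and 13.1%. The YY1 motif (AAGATG followed by GCG) stood in 1 subunit promoter (1.64%) and in 0.721% of all. A match of letters is a description of the window and does not show binding.

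No gene of the 94 passed the test in any comparison, that is, an adjusted p under 0.05 from limma with Benjamini-Hochberg adjustment over all genes. In RYGB against its sham 0 of 94 were called while 2.64% of all genes were, and 8 of the 94 had an unadjusted p under 0.05 (all genes, 14.1%). In VSG against its sham 0 were called against 0.179% of all genes, with 3 at an unadjusted p under 0.05 (all genes, 8.99%). In VSG against pair-fed sham 0 were called against 0.508% of all genes, with 20 at an unadjusted p under 0.05 (all genes, 11.1%). In pair-fed sham against VSG sham 0 of 94 and 0% of all genes were called, with 6 of the 94 at an unadjusted p under 0.05 (all genes, 5.57%). These unadjusted counts moved with single arrays. All 8 after RYGB were subunits, and they became 3 without RYGB replicate 1, 3 without RYGB sham replicate 3 and 5 without RYGB sham replicate 2. Of the 3 after VSG 2 were subunits, which became 5 without VSG sham replicate 3 and 1 without VSG replicate 3, VSG replicate 6 or VSG sham replicate 5. The 4 subunits among the 6 in pair-fed against VSG sham became 2 without VSG sham replicate 3 or pair-fed sham replicate 2, and 7 without VSG sham replicate 5.

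The differences were small, and most of them pointed one way within a comparison. After RYGB 55 of the 66 subunits had a mean below the sham's, against 49.3% of all genes, and the median log2 difference of the subunits was -0.097 beside 0.0029 over all genes. After VSG 56 of 66 lay below the sham (all genes, 52.5%), with a median of -0.0545 beside -0.0100. Against pair-fed sham 60 of 66 lay below (all genes, 53.5%), with a median of -0.119 beside -0.0158, and in pair-fed sham against VSG sham 55 of 66 lay above (all genes, 53.1%), with a median of 0.0593 beside 0.0115. Subunits are among the brighter genes of these arrays. The 1221 genes with a mean above 8 had medians of -0.0278 after RYGB, -0.0135 after VSG and -0.0367 in VSG against pair-fed sham. In pair-fed against VSG sham their median was 0.0238. Of the 1221, 696 lay below 0 after RYGB, 673 after VSG and 741 against pair-fed sham, and 732 lay above 0 in pair-fed against VSG sham. The bright genes as a whole thus lay slightly to the same side of 0 as the subunits.

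The 95% intervals show how large a difference these arrays leave room for. After RYGB the interval of 62 of 66 subunits lay inside a 1.5-fold difference either way. So did that of 73.4% of all genes and of 1059 of the 1221 genes with a mean above 8. The 4 subunits whose interval reached further were Cox6b1, Cox6b2, Ndufa4l2 and Atp5f1c, named after their values were seen. The count of subunits was also 62 in VSG against sham (81.1% of all genes) and in pair-fed sham against VSG sham (83.3%). It was 60 in VSG against pair-fed sham (79.8%). Of the 1221 bright genes the counts were 1142, 1173 and 1129 in the same order, so narrow intervals are not particular to the subunits. The VSG, VSG sham and pair-fed sham arrays are each used in 2 of the 4 comparisons, so the counts of these 3 comparisons share samples.

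**Figure D1:**
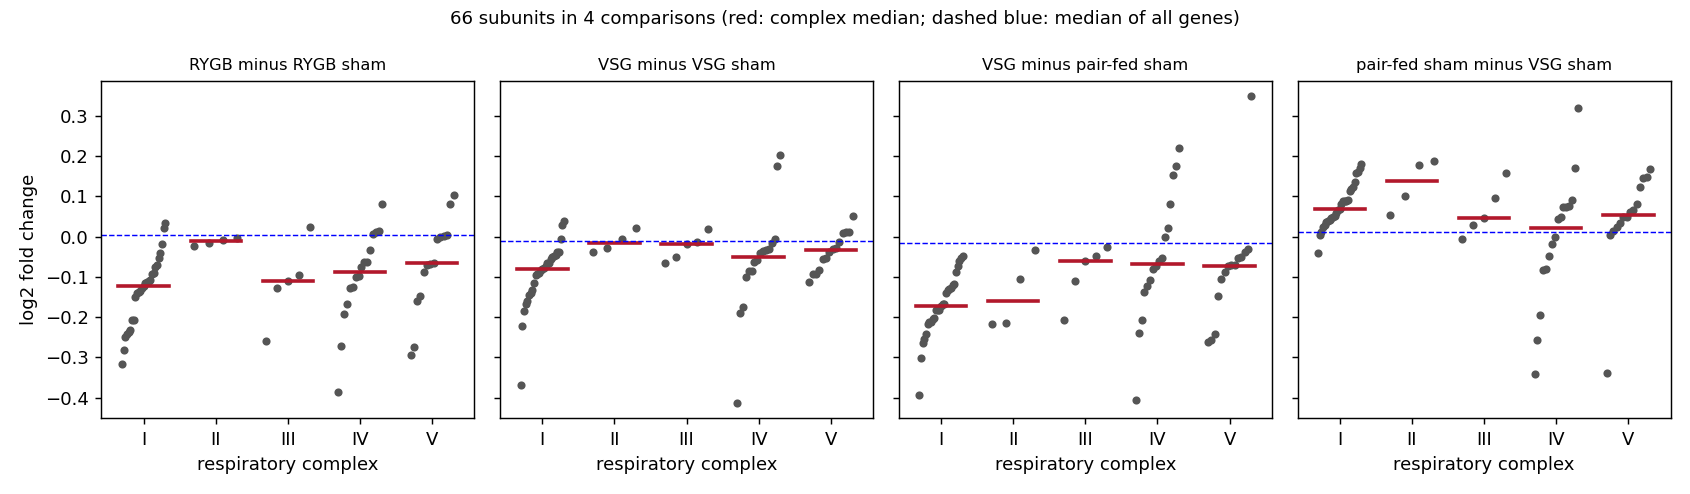
Log2 fold change of each of the 66 subunits (points), by respiratory complex, in 4 comparisons; the red line is the median of the complex and the dashed blue line the median of all 14557 genes. Complex I lies below the median of all genes in VSG against pair-fed sham for each of its 27 subunits, while complex II lies close to 0 after RYGB.

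Complex I, the NADH dehydrogenase and the largest of the complexes, had 25 of 27 subunits below the sham after RYGB, with a median log2 difference of -0.122. Of the 27, 5 had an unadjusted p under 0.05, all of them lower. At that level 7.30% of all genes were lower, and 166 of the 1221 genes with a mean above 8. The smallest p was that of Ndufv1, the flavoprotein subunit that binds NADH. Its RYGB arrays had a lowest value of 8.84, a median of 9.15 and a highest value of 9.24, and its sham arrays a lowest value of 9.25, a median of 9.36 and a highest value of 9.42. All 6 RYGB arrays lay below all 5 sham arrays, if by a narrow margin, a pattern that 1.39% of all genes shared. This amounted to -0.24 ± 0.09 on the log2 scale (SE; 1.18-fold lower), with an unadjusted p of 0.0106 and a limma adjusted p of 0.167. The others, named after their values were seen, were Ndufs8, which carries iron-sulphur clusters (-0.28 ± 0.13), Ndufs4, a subunit whose loss causes Leigh syndrome in humans (-0.24 ± 0.09), and the accessory subunits Ndufb10 (-0.32 ± 0.13) and Ndufa9 (-0.23 ± 0.11). Their limma adjusted p-values lay between 0.171 and 0.341.

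After VSG 25 of the 27 complex I subunits again lay below the sham, with a median of -0.0803. Ndufab1, the mitochondrial acyl carrier protein that also serves fatty acid synthesis in the organelle, had the smallest p. Its VSG arrays had a lowest value of 8.13, a median of 8.40 and a highest value of 8.57, and its VSG sham arrays 8.42, 8.72 and 8.998. The 2 groups overlapped only between 8.42 and 8.57. VSG minus sham was -0.37 ± 0.13 on the log2 scale (SE), with an unadjusted p of 0.0069 and a limma adjusted p of 0.337. Ndufv2, an iron-sulphur partner of Ndufv1, was the only subunit whose VSG arrays all lay below all sham arrays (0.343% of all genes did so): its highest VSG value was 8.814 and its lowest sham value 8.817, and the log2 difference was -0.22 ± 0.09.

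Against pair-fed sham all 27 complex I subunits lay lower after VSG, from -0.395 for Ndufab1 to -0.0492 for Ndufb9. The median was -0.172, and 11 of the 27 had an unadjusted p under 0.05, each of them lower. At that level 6.57% of all genes were lower, and 135 of the 1221 genes with a mean above 8. Ndufa6, an accessory subunit that binds the acyl carrier protein, had the smallest p. Its VSG arrays had a lowest value of 8.85, a median of 9.09 and a highest value of 9.22, and its pair-fed arrays 9.16, 9.32 and 9.69. Only the highest VSG array reached into the pair-fed range, and the VSG sham arrays lay between, with a median of 9.20. The difference on the log2 scale was -0.30 ± 0.09 (SE; 1.23-fold lower), with an unadjusted p of 0.00327 and a limma adjusted p of 0.167. Ndufb5, another accessory subunit, was the only subunit without overlap between the groups: its highest VSG value was 9.664 and its lowest pair-fed value 9.665, where 0.646% of all genes showed that pattern. In pair-fed sham against VSG sham 26 of 27 complex I subunits lay above 0, with a median of 0.0675 and none at an unadjusted p under 0.05. The difference nearest to that level was Ndufb8, at 0.18 ± 0.09 with a limma adjusted p of 0.902.

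**Figure D2:**
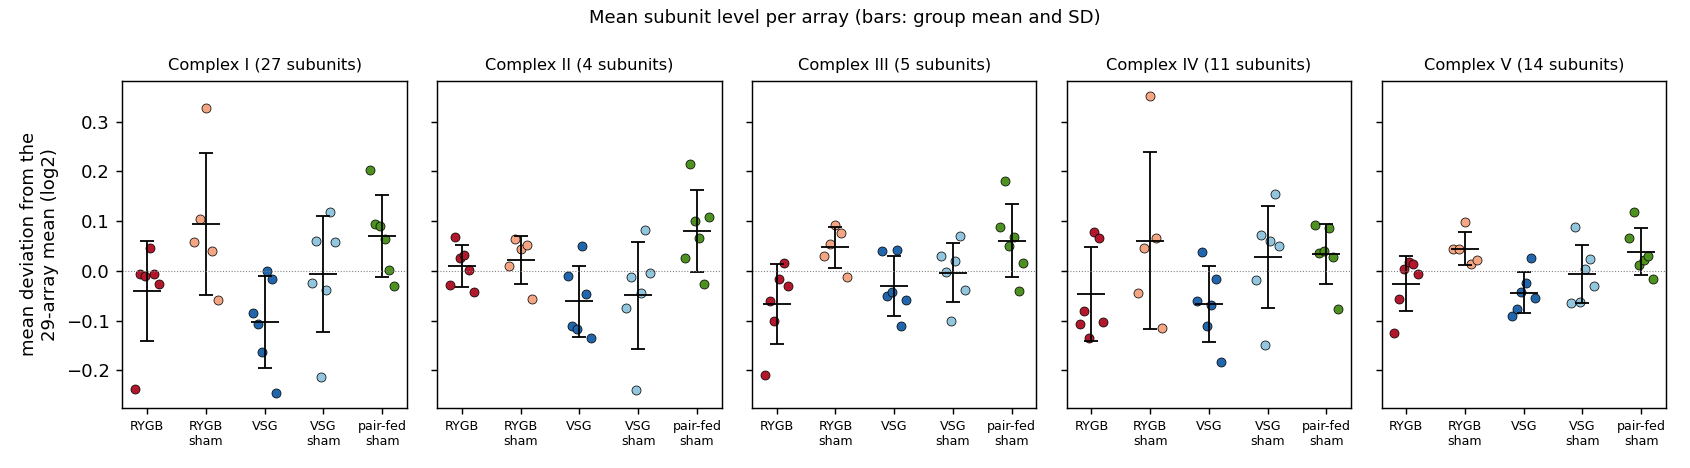
Mean level of the subunits of each complex on each array, as the log2 deviation from the gene's mean over the 29 arrays; points are arrays and bars show the group mean and SD. Only subunits with a row above the array medians are averaged, 11 of the 16 for complex IV; RYGB sham replicate 3 stands highest in complexes I and IV, and the groups overlap in every complex.

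Averaged over its 27 subunits and set against the 29-array mean, the complex I level was -0.04 ± 0.10 (SD, n = 6) in RYGB, 0.09 ± 0.14 (n = 5) in its sham, -0.10 ± 0.09 (n = 6) in VSG, -0.01 ± 0.12 (n = 6) in VSG sham and 0.07 ± 0.08 (n = 6) in pair-fed sham. The 5 RYGB sham arrays stood at 0.06, 0.11, 0.33, 0.04 and -0.06, so replicate 3 alone carried much of that group's height. In RYGB, replicate 1 stood at -0.24 while the other 5 lay between -0.03 and 0.05. The pooled SD between rats within a group was 0.107. Without RYGB sham replicate 3 the median after RYGB was -0.0565 for complex I and -0.0495 for all 66 subunits. In pair-fed against VSG sham the complex I median was 0.0315 without VSG sham replicate 3 and 0.0393 without pair-fed sham replicate 1. RYGB sham replicate 3 had the lowest mean of the enterocyte markers (9.48) and RYGB replicate 1 the highest (9.95). With the enterocyte mean as a covariate the median of all 66 subunits after RYGB was -0.0927. The arrays measure tissue, in which fewer cells of a type and less RNA per cell cannot be told apart.

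Complex II, succinate dehydrogenase, is the one complex without a mitochondrially encoded subunit and links the tricarboxylic acid cycle to the chain. Of the 5 complexes it had the median nearest to 0 after either operation, -0.0115 after RYGB and -0.0168 after VSG, values so small that leaving out 1 array turned the sign (0.0075 without RYGB sham replicate 2 and 0.0009 without VSG sham replicate 5). After RYGB its 4 subunits differed from sham by between -0.0241 and -0.0036, and after VSG by between -0.038 and 0.0207. Sdha, the flavoprotein that oxidises succinate, stood at 8.82 ± 0.06 (SD, n = 6) in RYGB and 8.83 ± 0.10 (n = 5) in its sham, a log2 difference of -0.01 ± 0.08 (SE) with a 95% interval from -0.18 to 0.16. Sdhb, its iron-sulphur partner, stood at 10.56 in RYGB, RYGB sham and VSG sham, 10.58 in VSG and 10.61 in pair-fed sham, as group means.

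The membrane anchors of complex II, Sdhc and Sdhd, which bind coenzyme Q, had the largest differences of its 4 subunits in both comparisons with pair-fed sham. The VSG arrays of Sdhc had a lowest value of 9.72, a median of 9.88 and a highest value of 9.97, its VSG sham arrays 9.72, 9.90 and 10.02, and its pair-fed arrays 9.96, 10.09 and 10.14. VSG and VSG sham covered nearly the same range, and 1 VSG array reached the lowest pair-fed value. The log2 difference between VSG and pair-fed sham was -0.22 ± 0.07 (SE; limma adjusted p = 0.214) and that between pair-fed sham and VSG sham was 0.19 ± 0.07 (limma adjusted p = 0.818). Sdhd differed by -0.22 ± 0.08 and 0.18 ± 0.08 in the same comparisons. Both genes had unadjusted p-values under 0.05 in each, where 6.57% of all genes were lower in VSG against pair-fed sham and 3.11% higher in pair-fed against VSG sham. Of the 1221 genes with a mean above 8 these were 135 and 41. The same pair-fed arrays enter both comparisons, so these are not independent results.

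Complex III, the cytochrome bc1 complex, held the gene with the smallest p of all members after RYGB, Uqcrc1, a core protein of the complex on its matrix side. Its RYGB arrays had a lowest value of 9.82, a median of 10.01 and a highest value of 10.21, and its 5 sham arrays stood at 10.25, 10.28, 10.27, 10.31 and 10.24. All RYGB arrays lay below all sham arrays, and the sham arrays lay close together. The log2 difference was -0.26 ± 0.08 (SE; 1.20-fold lower), with a 95% interval from -0.42 to -0.10, an unadjusted p of 0.00283 and a limma adjusted p of 0.0786, above the threshold. It passed the threshold in 3 of 23 alternative analyses: at 0.0395 with the lowest 33.3% of genes left out, 0.0189 with a trended and robust prior and 0.0356 without RYGB replicate 5. Over the 23 its adjusted p ran from 0.0189 to 0.39, its difference from -0.30 to -0.20.

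In VSG arrays Uqcrc1 had a lowest value of 10.04, a median of 10.15 and a highest value of 10.27, and in VSG sham arrays 10.06, 10.17 and 10.31, 2 ranges that nearly coincide. The log2 difference was -0.01 ± 0.08 (SE), with a 95% interval from -0.17 to 0.14. The difference between the RYGB and the VSG effect was -0.25 ± 0.11, with an unadjusted p of 0.0331 and a limma adjusted p of 0.527, so the 2 operations were not shown to differ in this gene. Its core partner Uqcrc2 differed by -0.13 after RYGB and by -0.07 ± 0.08 after VSG. The Rieske iron-sulphur protein Uqcrfs1, which passes electrons towards cytochrome c, differed by 0.02 ± 0.10 after RYGB and by 0.02 ± 0.09 after VSG. Uqcrq, a small subunit, had the smallest p of the complex in VSG against pair-fed sham, at -0.21 ± 0.08 with a limma adjusted p of 0.301. The medians over the 5 subunits were -0.11 after RYGB, -0.0188 after VSG, -0.0598 against pair-fed sham and 0.0452 in pair-fed against VSG sham. The RYGB median was -0.0667 without RYGB sham replicate 3 and -0.07 without RYGB replicate 1. Leaving out 1 array moved the VSG median between -0.0368 and -0.0142, that against pair-fed sham to -0.0988 (VSG replicate 1) and that of pair-fed against VSG sham between 0.0233 (VSG sham replicate 3) and 0.1065 (pair-fed sham replicate 5). Without the arrays whose mean of exocrine pancreas markers was above 8 the VSG median was 0.023.

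**Figure D3:**
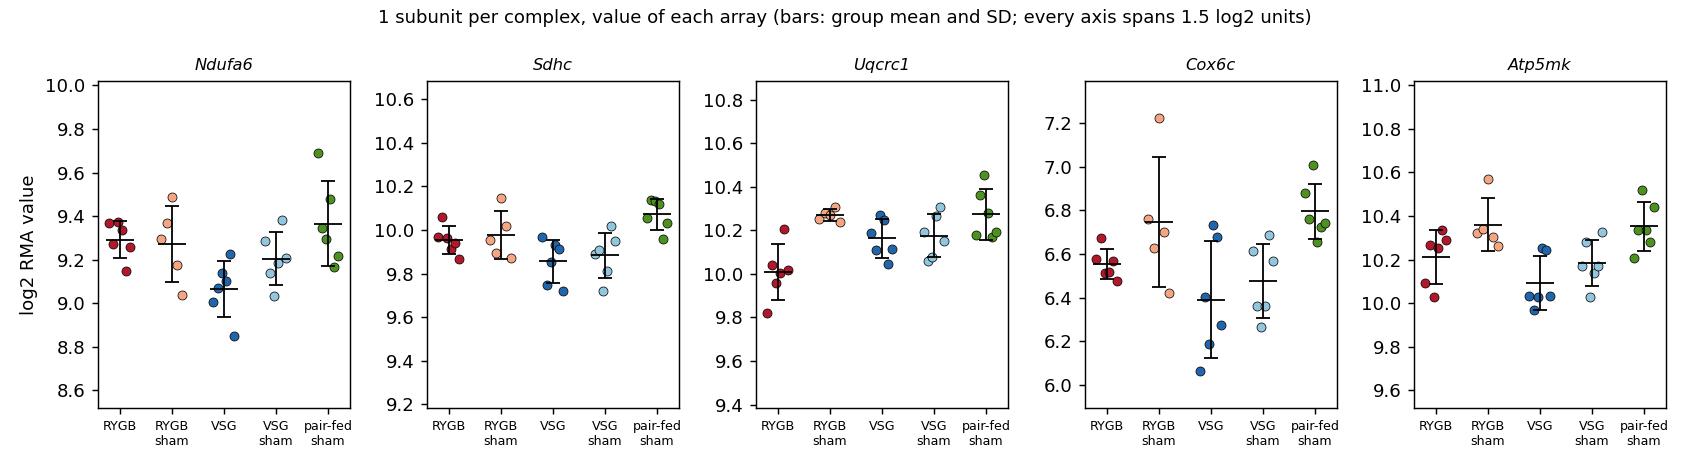
RMA log2 value of 1 subunit of each complex on every array, with group mean and SD; each axis spans 1.5 log2 units. The RYGB arrays of Uqcrc1 lie below all 5 of its sham arrays, and Ndufa6, Sdhc, Cox6c and Atp5mk have their highest or second-highest group mean in pair-fed sham.

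Complex IV, cytochrome c oxidase, hands the electrons to oxygen. Its median differences were -0.0869 after RYGB, -0.0504 after VSG, -0.067 in VSG against pair-fed sham and 0.0222 in pair-fed against VSG sham, where 8 of the 16 subunits lay above 0 and 8 below. The RYGB median was -0.0164 without RYGB sham replicate 3, the VSG median -0.0806 without VSG sham replicate 3 and -0.0272 without VSG sham replicate 5. In pair-fed against VSG sham leaving out 1 array moved it between -0.0076 (VSG sham replicate 3) and 0.0528 (pair-fed sham replicate 5), so its sign was not kept. Cox6c, a small accessory subunit, had the smallest p of all members in VSG against pair-fed sham. Its row was rather weak, with a mean of 6.59 over the 29 arrays (Cox4i1, 11.06). Its VSG arrays had a lowest value of 6.06, a median of 6.34 and a highest value of 6.73, its VSG sham arrays 6.27, 6.46 and 6.69, and its pair-fed arrays 6.66, 6.75 and 7.01. Of the 6 VSG arrays 4 lay below the pair-fed range. VSG minus pair-fed sham was -0.41 ± 0.12 (SE; 1.32-fold lower), with an unadjusted p of 0.00191 and a limma adjusted p of 0.131; in pair-fed against VSG sham it was 0.32 ± 0.12 with an adjusted p of 0.787. In the RYGB sham its 5 arrays ran from 6.42 to 7.22, the latter again replicate 3, and the RYGB difference was -0.19 ± 0.12.

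Several complex IV subunits have tissue or oxygen-dependent isoforms, and neither partner of any such pair passed the test. Cox4i1, the common regulatory subunit, had group means between 11.03 and 11.09 and differed by 0.01 ± 0.07 (SE) after RYGB and by -0.02 ± 0.07 after VSG. Cox4i2, its isoform of lung and low oxygen, differed by -0.17 ± 0.17 and -0.19 ± 0.17. Cox6a1 differed by -0.06 after RYGB and its heart and muscle isoform Cox6a2 by -0.08 ± 0.24; after VSG Cox6a2 stood at -0.41 ± 0.23, with a limma adjusted p of 0.641 and an interval from -0.89 to 0.06. The testis isoform Cox6b2 had the most negative value of any subunit after RYGB, -0.39 ± 0.26, with an interval from -0.93 to 0.15. Ndufa4, which was named for complex I and works in complex IV, differed by -0.12 after RYGB and -0.10 after VSG. Its hypoxia-induced relative Ndufa4l2, like Cox6b1, Cox7b2, Cox8b and Cox8c, had a mean under 2.97, the highest of the array medians, so these rows carry little signal. The row of Cox6b1 is one of them, although the gene belongs to the complex in every tissue, and its values are not read further.

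Complex V makes the ATP. The alpha and beta subunits of the F1 head, Atp5f1a and Atp5f1b, were nearly level. Atp5f1a differed by -0.09 ± 0.07 (SE) after RYGB and 0.01 ± 0.07 after VSG, and Atp5f1b by -0.0003 ± 0.07 and -0.04 ± 0.07. The intervals of Atp5f1b ran from -0.14 to 0.14 after RYGB and from -0.17 to 0.10 after VSG. After RYGB the smallest p was that of Atp5pd, a subunit of the peripheral stalk that holds the head in place. Its RYGB arrays had a lowest value of 9.38, a median of 9.61 and a highest value of 9.99, and its sham arrays stood at 9.85, 10.02, 10.32, 9.73 and 9.76. The groups overlapped through 1 RYGB array above 9.73. The log2 difference was -0.30 ± 0.13, with a limma adjusted p of 0.261. Atp5f1d, the delta subunit of the central stalk, named after its values were seen, differed by -0.27 ± 0.13.

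In VSG against pair-fed sham Atp5mk, a small membrane subunit linked to the pairing of ATP synthases, had the smallest p of complex V. Its VSG arrays had a lowest value of 9.97, a median of 10.03 and a highest value of 10.25, and its pair-fed arrays 10.21, 10.34 and 10.52. The 2 highest VSG arrays overlapped the pair-fed range. On the log2 scale the difference was -0.26 ± 0.08 (SE; 1.20-fold lower), with an unadjusted p of 0.00373 and a limma adjusted p of 0.173. Against VSG sham, whose arrays ran from 10.03 to 10.33, the difference was -0.09 ± 0.08. The gamma subunit Atp5f1c had the widest spread of the subunits, with an interval from -0.24 to 0.94 in VSG against pair-fed sham. Its row was weak, with a mean of 5.14 over the 29 arrays, where Atp5f1a had 10.86 and Atp5f1b 10.73. The medians over the 14 subunits were -0.0665 after RYGB, -0.0338 after VSG, -0.0724 against pair-fed sham and 0.0548 in pair-fed against VSG sham. The RYGB median was -0.0259 without RYGB replicate 1, -0.0381 without RYGB sham replicate 3 and -0.0239 with array weights. The VSG median was -0.053 without VSG sham replicate 4 and -0.0213 without VSG sham replicate 5, and that of pair-fed against VSG sham 0.0288 without pair-fed sham replicate 2.

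Among the 11 assembly factors and regulators, Sdhaf2, which attaches the flavin cofactor to Sdha, took opposite signs after the 2 operations. Its RYGB arrays had a lowest value of 7.12, a median of 7.26 and a highest value of 7.35, and its RYGB sham arrays a lowest of 6.86, a median of 6.95 and a highest of 7.26. Its VSG arrays ran from 6.36 through a median of 6.87 to 7.10, and its VSG sham arrays from 7.02 through 7.09 to 7.19. All 6 RYGB values lay above the median of their sham and 5 of the 6 VSG values below the median of theirs, and the groups overlapped in both series. The log2 difference was 0.23 ± 0.12 (SE) after RYGB and -0.28 ± 0.11 after VSG, and the test of the difference between the effects gave 0.51 ± 0.16 with an unadjusted p of 0.00355 and a limma adjusted p of 0.234. Atp5if1, the inhibitor that stops complex V from running in reverse, and Cox7a2l, which joins complexes III and IV, differed by -0.09 and 0.06 after RYGB. The 17 pseudogenes and copies had medians of -0.0108 after RYGB and -0.0102 in VSG against pair-fed sham; the annotation's copies can share probes with their parent genes, so they are not read singly.

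The sham groups of the 2 series did not differ in any named gene by the limma test (0 of 14557 called, 0%, with 757 at an unadjusted p under 0.05). Of the 66 subunits 53 had a lower mean in the VSG sham than in the RYGB sham (all genes, 50.3%), with a median of -0.0664. This is of the size of the medians after surgery. Leaving out 1 array moved it between -0.105 and -0.026, and without RYGB sham replicate 3 the subunits lower in the VSG sham numbered 44. With the enterocyte mean as a covariate the median was -0.0381, with 42 subunits lower. All 6 VSG sham arrays of Ndufa12, an accessory subunit of complex I, lay above all RYGB sham arrays, as did 0.240% of all genes. The effect of RYGB minus that of VSG had a median of -0.0292 over the 66 subunits (0.002 without RYGB sham replicate 3), with 37 below 0 (all genes, 47.6%) and 1, Uqcrc1, lower at an unadjusted p under 0.05 (all genes, 4.42%).

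**Figure D4:**
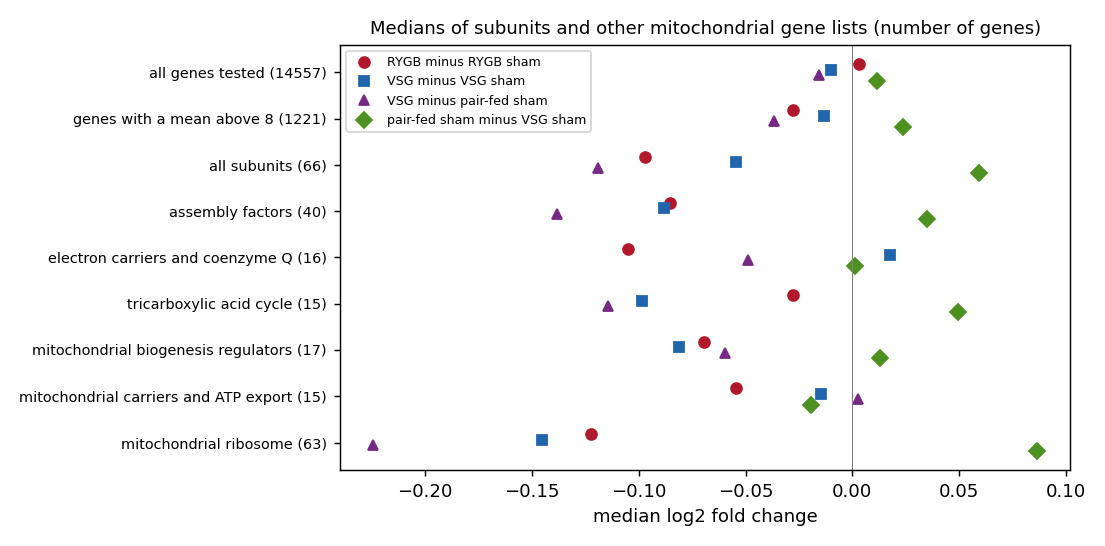
Median log2 fold change of the subunits and of other mitochondrial gene lists in 4 comparisons, beside all genes and the genes with a mean above 8; numbers of genes are in brackets. The mitochondrial ribosome has the most negative median in VSG against pair-fed sham, -0.224.

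Around the chain, single genes of other lists passed the test. So few calls do not set these lists apart from the subunits, as 2.64% of all genes were called after RYGB. Of 40 measured assembly factors 1 fell after RYGB: Sco1, a copper chaperone for complex IV, at -0.55 ± 0.10 (SE; 1.46-fold, limma adjusted p = 0.00133). The test of its effect after RYGB minus that after VSG gave -0.66 with an adjusted p of 0.0179, where 0.302% of all genes were called lower. Of 15 tricarboxylic acid cycle and pyruvate dehydrogenase genes 1 fell, Pdhb, the beta subunit of the first enzyme of pyruvate dehydrogenase, at -0.47 ± 0.10 (adjusted p = 0.00456). Of 15 mitochondrial carriers 1 fell, Slc25a12, the aspartate and glutamate carrier, at -0.56 ± 0.13 (adjusted p = 0.0106). A list of 10 genes gathered around HIF and mitochondria had 5 above 0 and 5 below after RYGB, with 8 not called. Its called genes were Pdk4 and Bnip3l. Pdk4, a kinase that switches pyruvate dehydrogenase off, fell by 1.15 on the log2 scale (SE 0.24, adjusted p = 0.005). Bnip3l, a receptor for the removal of mitochondria, rose by 0.53 ± 0.14 (adjusted p = 0.0413). Whether HIF acts on either gene here was not tested. Over all genes 1.38% were called lower and 1.26% higher in that comparison.

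Of 16 electron carrier and coenzyme Q genes none passed after RYGB and 3 had an unadjusted p under 0.05 (all genes, 14.1%). Among the 3 was Coq4 of coenzyme Q synthesis at -0.49 ± 0.15 (SE, limma adjusted p = 0.0785). In VSG against pair-fed sham Coq10b, a coenzyme Q binding protein, rose by 0.65 ± 0.13 (adjusted p = 0.0193), and 0.261% of all genes were called higher. Ppargc1a, the coactivator of mitochondrial biogenesis, stood at -0.62 ± 0.16 there with an adjusted p of 0.0672, and at 0.33 ± 0.16 in pair-fed against VSG sham with an adjusted p of 0.884. None of the 17 biogenesis regulators passed limma's threshold in any of the 4 comparisons. In each, 2 to 4 of them had an unadjusted p under 0.05 (all genes, 5.57% to 14.1%). The mitochondrial ribosome, which translates the mitochondrially encoded subunits, had 63 measured genes. All 63 lay below 0 in VSG against pair-fed sham (all genes, 53.5%), with a median of -0.224. Of these, 32 were lower at an unadjusted p under 0.05 (all genes, 6.57%), and none passed the adjusted threshold. After RYGB 55 of the 63 lay below 0 (all genes, 49.3%), with a median of -0.122. Of the 63, 1 was called lower (all genes, 1.38%), Mrpl35, at -0.38 ± 0.11 (adjusted p = 0.0426).

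Enterocyte markers, 15 of 18 measured, had a mean between 9.48 and 9.95 on every array. Markers of the exocrine pancreas, which lies against the duodenum, varied far more. The mean of the 14 measured of 21 markers ran from 3.17 to 9.43 in RYGB, 2.92 to 6.17 in its sham, 5.20 to 8.89 in VSG, 3.00 to 8.70 in VSG sham and 2.84 to 9.70 in pair-fed sham. After RYGB all 14 lay higher, with a median log2 difference of 3.73. All 14 had an unadjusted p under 0.05 (all genes, 14.1% in either direction), and none passed limma's adjusted threshold. With the pancreas mean as a covariate the subunit median was -0.0902 after RYGB, -0.0499 after VSG and -0.11 against pair-fed sham, while the subunits at an unadjusted p under 0.05 after RYGB numbered 2 in place of 8. Without the arrays whose pancreas mean was above 8 it was -0.125, -0.0337 and -0.0914, and the subunits at an unadjusted p under 0.05 against pair-fed sham numbered 6 in place of 17. Without these arrays the complex I median was -0.183 after RYGB, -0.0483 after VSG and -0.108 against pair-fed sham, and the complex V median after RYGB was -0.113. The 11 fibroblast and endothelial markers measured had a median of -0.188 after RYGB and Lum, a matrix proteoglycan, fell by 0.59 (SE 0.15, limma adjusted p = 0.0335). Of the 8 enteric neuron and glia markers measured, Vip, a neuropeptide, fell by 1.22 (SE 0.24, adjusted p = 0.00343). Of the 15 enterocyte markers 11 lay above 0 and 4 below after RYGB, with a median of 0.0215. Only Anpep, a brush border peptidase, was called, rising by 0.35 ± 0.08 (adjusted p = 0.0165), and the lowest was Lct at -0.47. Over all genes 1.38% were called lower and 1.26% higher after RYGB. None of the 6 smooth muscle and 13 leukocyte markers measured passed after RYGB (1 and 4 at an unadjusted p under 0.05, all genes 14.1%). The part of these cell types in the subunits' values was not tested beyond the covariate for the pancreas and enterocyte means.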

How the data were processed

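The deposited values are on the log2 scale; the authors made them with RMA in Affymetrix Expression Console 1.3.0.187, per the submitters' processing notes. RNA was extracted with a column kit and amplified and biotin-labelled before hybridisation, per the labels' protocols. RMA as commonly run corrects background, quantile-normalizes and summarises probes; quantile normalization makes changes relative to the other genes, and array values tend to compress folds. No chip definition or filter is stated in the labels. The array medians over the 36685 rows lay between 2.80 and 2.97, and no 2 arrays correlated above 0.977. Precision is limited by how many arrays a group has.

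In the platform annotation 14824 rows had 1 symbol and 829 several; the other 21032 are unnamed here. Symbols were brought up to date by Entrez number through the GRCr8 gene table, where 60 numbers were not found. A gene took its row with the highest mean, which mattered for 234 genes, 3 of them members. limma 3.58.1 in R 4.3.3 (lmFit, eBayes) fitted 5 group means to all 29 arrays, with two-sided p-values adjusted by Benjamini-Hochberg over 14557 genes and genes called at an adjusted p under 0.05. The fit was tested on simulated data with the spread of the real genes, in which randomly taken genes were changed in RYGB. Of 100 genes changed by 0.5 on the log2 scale 37% were called, and of 100 changed by 1 90% were, with 5 false calls. Real changes of the size seen in the subunits can thus go uncalled. Per the labels, each group consists of biological replicates.

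The members and gene lists were chosen with earlier results of these data known, so no list was tested as a set. Named genes were members called in a comparison, the member with the smallest p per complex and comparison, fixed core subunits and isoform pairs (Ndufs1, Cox5a, Cox7a1 and Cox7a2 had no row of their own), and from each other list the called genes or the smallest p. Promoters were searched for motifs on both strands.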

Additional observations from a re-analysis of the deposited data

Results flagged for a closer look

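In 14 of 160 groups of values 1 array stood apart from the others of its group by Dixon's criterion, which chance alone meets in about 1 of 20 groups. RYGB replicate 1 was the lone low array in 4 of them: its complex I level was -0.24 where the others lay between -0.03 and 0.05, Ndufab1 was 8.00 (others from 8.52 to 8.76), Uqcrq 10.03 (others from 10.29 to 10.39) and Sdhb 10.45 (others from 10.56 to 10.62). VSG sham replicate 3 was low in Ndufv1, at 8.88 (others from 9.24 to 9.39), and in Sdha, at 8.59 (others from 8.80 to 8.85). RYGB sham replicate 3 was high in Atp5mk, at 10.57 (others from 10.26 to 10.34).

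The complex IV level of pair-fed sham replicate 6 was -0.08 (others from 0.03 to 0.09), and Cox4i1 in pair-fed sham replicate 3 was 10.85 (others from 11.09 to 11.20). Uqcrq was high in VSG replicate 4, at 10.49 (others from 10.17 to 10.26), and in pair-fed sham replicate 1, at 10.66 (others from 10.39 to 10.48). Sdhb was low in VSG replicate 3, at 10.49 (others from 10.58 to 10.62). Cox6b1, whose row lies under the array medians, was high in RYGB replicate 4, at 2.73 (others from 2.20 to 2.39), and in VSG replicate 6, at 2.90 (others from 1.95 to 2.27).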

How the results depend on the processing

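Of 3628 values recomputed under alternatives for 150 results, 3621 were counted as unchanged. A median counted so if it moved by less than the SD between rats within a group. A gene had also to stay above the adjusted p threshold, and the number of members called had to be equal. That SD was 0.0779 for all subunits, more than the size of their medians after VSG (-0.0545) and under paired feeding (0.0593). A median could thus change sign and still count as unchanged, so this count does not show that the medians are stable. The number of members called after RYGB was 1 in place of 0, always Uqcrc1, with the lowest 33.3% of genes left out, with a trended and robust prior, and without RYGB replicate 5; leaving out 1 array at a time it ran from 0 to 1, and the cause was not tested. The median of complex III in the difference of the effects was -0.182 in place of -0.061 without the arrays with high pancreas markers. The sign of the median over all subunits was kept under each alternative in the comparisons of surgery and feeding, with values from -0.125 to -0.0495 after RYGB, -0.0875 to -0.0303 after VSG, -0.138 to -0.0818 against pair-fed sham and 0.0253 to 0.0838 in pair-fed against VSG sham; the values nearest to 0 came without RYGB sham replicate 3, VSG replicate 6 (-0.0303) or VSG sham replicate 5 (-0.0305) and VSG sham replicate 3, and with further quantile normalization. The sign was not kept throughout for the complex II median after either operation, the complex III median after VSG and the complex IV median under paired feeding, for the medians of all subunits and of complexes I, II, IV and V in the difference of the effects, or for that of complex V between the shams. The calls over all genes moved more: 385 after RYGB became 192 with the 2 groups alone and 165 without the arrays with high pancreas markers, 26 after VSG became 6 and 0, 74 against pair-fed sham became 11 and 6, or 123 with the lowest 33.3% of genes left out, and 57 for the difference of effects became 16 without those arrays. With all rows tested they were 269, 10, 32 and 42. Whether the replicate numbers pair the rats was not settled. Same-numbered arrays correlated between -0.217 and 0.234 in their deviations, which cannot decide it, because matched rats need not have correlated arrays. With the replicate block 0 members were called in each comparison and the subunit median after RYGB was -0.0974. Rows have no detection call, so values under about 3 are not separable from background.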
